A study of Anser cygnoides with 9 samples.

Results

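The genes described here encode membrane transporters, ion pumps and ion channels. They were taken by symbol: solute carriers (SLC, leaving out the mitochondrial SLC25 family), ABC transporters, the pumps named ATP1, ATP2 and ATP6 to ATP9, and channels named KCN, CACN, CLCN, SCN, AQP, TRPC, TRPM or TRPV. Of the 1371 gene names in the deposited table, 30 met this rule, which uses symbols and no measured value. The rule was chosen with earlier results of these data known. The samples were granulosa cells of 40-week-old Sichuan white geese, isolated from small and large yellow follicles and cultured. Of the 9 RNA libraries, 3 came from cells given the GnRH agonist alarelin acetate, 3 from cells given the GnRH antagonist cetrorelix acetate and 3 from blank cells given neither, which serve as the control. For neither analogue do the sources used here give a dose or a duration. Nothing in the labels says that the 3 libraries of a group were separate birds or cultures, so the spread between them may be technical.

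Membrane pumps such as the Na,K-ATPase spend ATP to hold sodium and potassium gradients, and secondary carriers of the SLC families use such gradients to move ions, metals, amino acids and other solutes. The V-ATPase is a proton pump that acidifies lysosomes, endosomes and secretory vesicles. Ion channels and aquaporins let ions and water pass down their gradients, and in the ovary calcium and potassium movements take part in the response of follicle cells to gonadotropins. GnRH receptors signal through release of calcium from internal stores.

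Levels are in TPM, a share of all transcripts corrected for gene length, so that levels can be compared between genes. In bulk RNA, fewer cells of a type and less RNA per cell cannot be told apart. A gene was called expressed where 3 or more of the 9 libraries reached 1 TPM, low below that, and silent where it was listed at 0 in all libraries. By this rule 11 of the 30 genes were expressed, 18 were low and 1, the potassium channel gene KCNK9, was silent. Over all listed genes, 832 of 1371 were expressed and 52 were listed at 0 throughout. Expressed were all 4 genes of ATP-driven ion pumps (ATP1B1, ATP6V0E2, ATP6V1G3 and ATP6AP2), the only ABC transporter (ABCB9), 1 of 3 aquaporins (AQP1) and 5 of 15 solute carriers (SLC8B1, SLC24A5, SLC15A4, SLC39A10 and SLC10A4). None of the 5 genes with a KCN symbol, of which KCNIP4 encodes a partner of channels, was expressed, nor was CACNG2 or the sodium channel gene SCNN1D. Other members of these families were not analysed here.

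The table holds part of each transcriptome: its genes made up 2.88% to 3.26% of the sum that complete TPM values have. The number of reads is unknown. The relative worth of a single fragment, read from the steps between low values, ran between 1.03 and 1.07 with the agonist, 1.11 and 1.18 with the antagonist and 1.00 and 1.21 in blank cells, with blank replicate 3 set to 1. A larger worth goes with fewer fragments or another transcript composition. By their description labels the libraries were run on 3 flow cells, of which 1 held all 3 groups: H75K3DMXX held 1 agonist and 1 antagonist library, H77KGDMXX 1 agonist, 2 antagonist and 1 blank library, and H773TDMXX 1 agonist and 2 blank libraries. Of 15 granulosa cell markers, 1 was in the table: FST, which encodes follistatin, averaged 43.3 ± 4.1 TPM in agonist cells, 52.4 ± 0.89 TPM with the antagonist and 49.9 ± 3.2 TPM in blank cells (SD, n = 3 each). It was lower with the agonist than with the antagonist, by -0.27 ± 0.089 on the log2 scale (SE; limma, adjusted p = 0.0467). In this comparison 25.6% of all 832 tested genes passed, 199 of 213 of them lower with the agonist. The median log2 fold change of all tested genes was -0.21, so nothing particular to FST is read from its value. Of 32 markers of theca, smooth muscle, endothelial, red blood and white blood cells, 1 was in the table, the endothelial gene CDH5, whose group means were 0.061, 0.053 and 0.028 TPM in agonist, antagonist and blank libraries. The cell type was therefore checked on 1 granulosa marker, and the part of the cell makeup in the results was not tested.

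A pair of pump genes carried most of the transcripts. ATP6V0E2, a small subunit of the membrane sector of the V-ATPase, was the highest, at 334, 297 and 268 TPM in the agonist libraries, 325, 403 and 324 TPM in the antagonist libraries and 306, 362 and 406 TPM in the blank libraries. The 3 groups overlapped. ATP1B1, the beta 1 subunit that brings the Na,K-ATPase to the cell surface, followed at 130, 178 and 150 TPM in agonist cells, 169, 149 and 187 TPM with the antagonist and 170, 152 and 162 TPM in blank cells, again with overlap. Together these 2 genes made up 83.6% to 88.4% of the summed TPM of the 30 genes in every library. That sum was 488 to 552 TPM in agonist libraries, 592 to 642 TPM in antagonist libraries and 565 to 643 TPM in blank libraries. As a share of all listed TPM it was 1.70% to 1.78% in agonist libraries, 2.01% to 2.07% in antagonist libraries and 1.78% to 2.00% in blank libraries, so that the agonist libraries lay below the antagonist libraries and touched the blank range. No test of this sum was made. The median of all tested genes was also lower with the agonist than with the antagonist, at a log2 fold change of -0.21.

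The other listed genes of the proton pump were far lower. ATP6AP2, an accessory protein of the V-ATPase also known as the (pro)renin receptor, averaged 5.70 ± 0.81 TPM in agonist cells, 6.65 ± 0.59 TPM with the antagonist and 6.06 ± 0.47 TPM in blank cells. ATP6V1G3, a subunit of the cytosolic sector known in mammals from kidney, averaged 2.45 ± 0.63 TPM in agonist cells, 2.93 ± 0.38 TPM in antagonist cells and 2.48 ± 0.42 TPM in blank cells. The mean of ATP6V0E2 over the 9 libraries was 336 TPM, against 6.14 TPM for ATP6AP2 and 2.62 TPM for ATP6V1G3, so the 3 genes of one pump did not stand at one level. In a RefSeq annotation of the Taihu goose, ATP6V0E2 overlaps COX15 and ATP1B1 overlaps NME7; without a stated strand setting, reads of such pairs cannot be told apart.

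**Figure D1:**
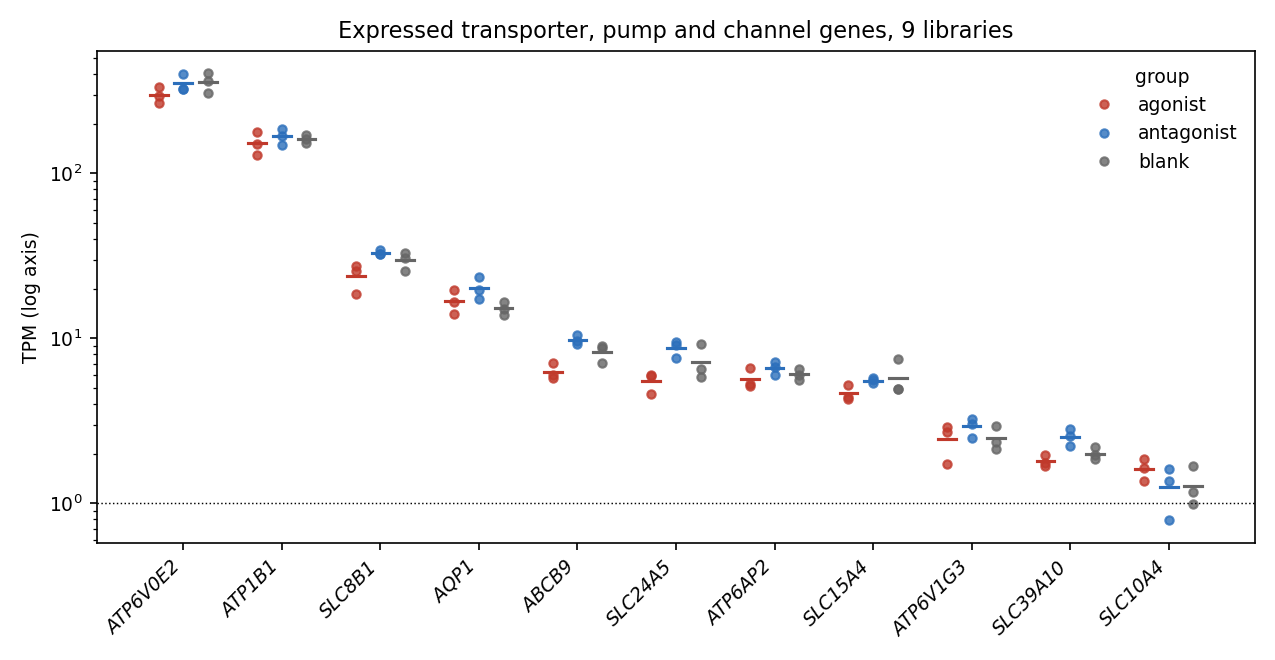
TPM (log axis) of the 11 expressed genes in each library, with agonist, antagonist and blank libraries as points from left to right, short bars for group means (n = 3 each) and a dotted line at 1 TPM. ATP6V0E2 and ATP1B1 lie above 100 TPM in all 9 libraries, and the other 9 genes lie below 40 TPM.

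ATP1B1 differed in level between the flow cells. The 4 libraries of H77KGDMXX, which came from all 3 groups, held 169 to 187 TPM, the 3 libraries of H773TDMXX 150 to 162 TPM and the 2 libraries of H75K3DMXX 130 to 149 TPM, without overlap. ATP6AP2 was likewise at 6.55 to 7.22 TPM in H77KGDMXX and at 5.13 to 6.03 TPM in the other 5 libraries. For 34 of all 832 tested genes (4.09%), the H77KGDMXX libraries lay apart from the rest. The H75K3DMXX libraries did so for 20 genes (2.4%), of the 11 only ATP1B1. The H773TDMXX libraries did so for 25 genes (3%) and for 0 of the 11. The pattern was picked after the values were seen, and no test of it was made.

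The exchangers and carriers of the expressed set are known from different membranes. SLC8B1, which moves calcium out of the mitochondrial matrix in exchange for sodium, was the highest of them with a mean of 28.9 TPM over the 9 libraries. AQP1, a water channel of the plasma membrane, averaged 17.4 TPM. ABCB9, a peptide transporter of lysosomes, averaged 8.12 TPM, and SLC24A5, a potassium-dependent sodium and calcium exchanger of intracellular membranes known for its part in pigmentation in zebrafish and human, 7.16 TPM. SLC15A4, a lysosomal carrier of histidine and small peptides, averaged 5.33 TPM. SLC39A10, a zinc importer, averaged 2.11 TPM and SLC10A4, a member of the bile acid carrier family found on synaptic vesicles in rodents, 1.39 TPM. The largest ratio of the highest to the lowest library among the 11 expressed genes was 2.35 for SLC10A4, and the smallest 1.41 for ATP6AP2.

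The comparison of agonist with antagonist set a ligand that activates the GnRH receptor against one that blocks it. Transcripts of SLC24A5, ABCB9, SLC8B1 and SLC39A10 were lower with the agonist than with the antagonist, and none of the 11 tested genes passed as higher. The ratios of TPM + 1 were 0.67 for SLC24A5 and for ABCB9, 0.72 for SLC8B1 and 0.80 for SLC39A10. The 4 calls (36.4% of 11) stood against a background in which 25.6% of all 832 tested genes passed the same rule, a limma adjusted p under 0.05. Of the 213 genes of the table that passed, 199 were lower with the agonist and 14 higher. The median log2 fold change of the 11 genes was -0.22 and that of all tested genes -0.21, so the transporter and channel genes lay close to the rest of the table, and nothing in this comparison is read as particular to them.

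ABCB9 was at 5.76, 7.05 and 5.99 TPM in the agonist libraries, 10.5, 9.22 and 9.59 TPM in the antagonist libraries and 8.80, 9.03 and 7.12 TPM in the blank libraries. Every agonist library lay below every antagonist library and below every blank library. Its log2 fold change of agonist against antagonist was -0.57 ± 0.11 (SE; limma, adjusted p = 0.0117), or -0.36 relative to the median of all genes. Of the 832 genes, 22 had a smaller p.

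SLC24A5 was at 4.61, 5.98 and 5.91 TPM in agonist cells, 9.55, 7.58 and 9.12 TPM with the antagonist and 9.29, 6.54 and 5.85 TPM in blank cells. The agonist and antagonist libraries did not overlap, and the blank libraries spanned both, with blank replicate 1 at the level of the antagonist. The log2 fold change of agonist against antagonist was -0.59 ± 0.16 (SE; limma, adjusted p = 0.0257), or -0.38 relative to the median. In the RefSeq annotation SLC24A5 overlaps MYEF2 and a noncoding gene.

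SLC8B1 was at 25.6, 27.4 and 18.5 TPM in agonist cells, 34.5, 32.4 and 32.3 TPM with the antagonist and 32.8, 30.7 and 25.6 TPM in blank cells. Agonist replicate 3 was the lowest of the 9 libraries, and the antagonist libraries lay close together above all agonist libraries. The log2 fold change of agonist against antagonist was -0.48 ± 0.14 (SE; limma, adjusted p = 0.0348), or -0.27 relative to the median.

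SLC39A10 was at 1.68, 1.97 and 1.77 TPM in agonist cells, 2.22, 2.55 and 2.81 TPM with the antagonist and 2.19, 1.96 and 1.86 TPM in blank cells. The antagonist libraries lay above all 6 others. The log2 fold change of agonist against antagonist was -0.33 ± 0.10 (SE; limma, adjusted p = 0.0345), or -0.12 relative to the median. SLC39A10 overlaps DNAH7 in the RefSeq annotation.

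**Figure D2:**
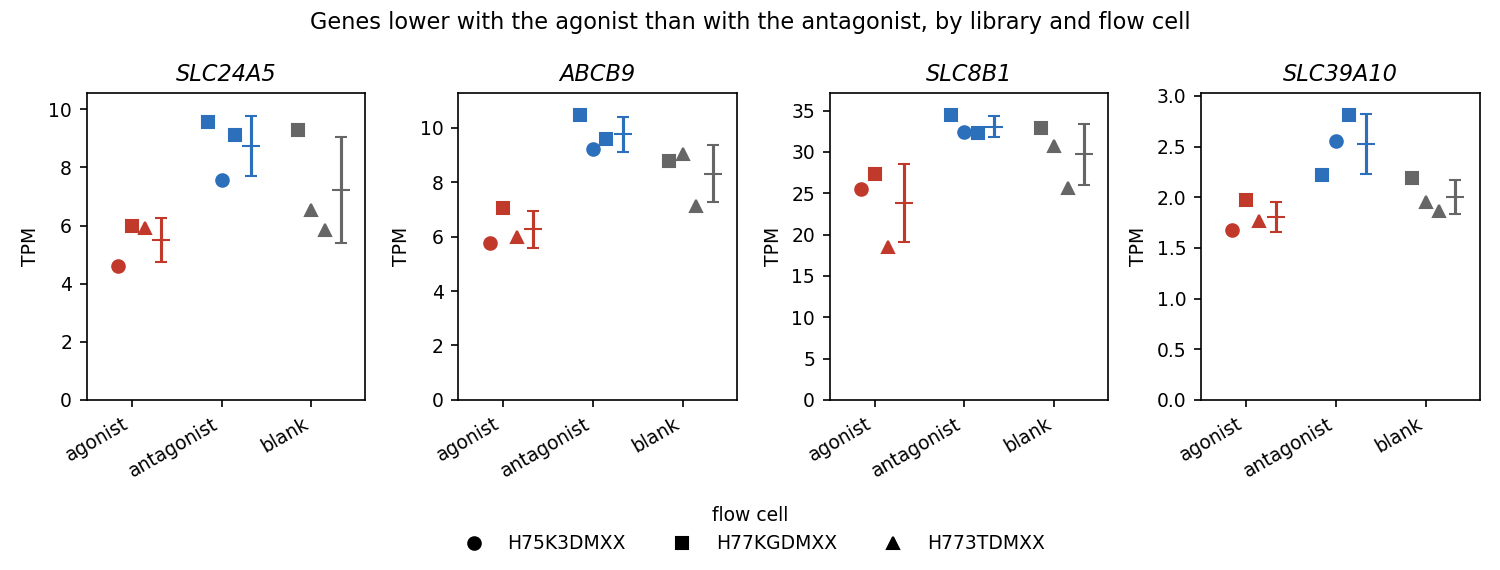
TPM of SLC24A5, ABCB9, SLC8B1 and SLC39A10 in each library, by group from left to right (agonist, antagonist, blank), with the marker shape giving the flow cell and the bar at the right of each group the mean ± SD (n = 3). For each of the 4 genes all agonist points lie below all antagonist points; for ABCB9 the blank points lie between them, and for SLC24A5 blank replicate 1, at 9.29 TPM, stands with the antagonist points.

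The sizes of the differences within the 2 flow cells that held both analogues are a description, since their direction follows from groups that do not overlap. In H75K3DMXX, with 1 library each, the log2 difference of agonist and antagonist was -0.60 for ABCB9, -0.61 for SLC24A5, -0.33 for SLC8B1 and -0.41 for SLC39A10, with a median of -0.23 over all tested genes. In H77KGDMXX, with 1 agonist and 2 antagonist libraries, the log2 differences were -0.45, -0.57, -0.28 and -0.24, with a median of -0.15. With the flow cell in the model, ABCB9 and SLC24A5 passed (limma, adjusted p = 0.0288 and 0.0389), while SLC8B1 and SLC39A10 did not (limma, adjusted p = 0.0594 and 0.0749). In that model 15.9% of all tested genes passed.

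The count of 4 rested on single libraries and on the scaling. Without agonist replicate 1 or without antagonist replicate 3, 0 of the 11 genes passed in limma, as 15 and 17 of all tested genes did. In each of these fits 4 of the 11 had an unadjusted limma p under 0.05. With all libraries 4 of the 11 and 359 of all 832 genes had one. For the alternative fits such genes were counted among the 11 only, so these counts have no background and are not read as a result. Without antagonist replicate 1 only ABCB9 passed, as 6.85% of all tested genes did. Without agonist replicate 3 or without antagonist replicate 2, 2 genes passed, as 14.5% and 16.8% of all tested genes did. Scaling by the upper quartile of the tested genes set the median of all tested genes to -0.04. After it 1 gene passed (ABCB9, log2 fold change -0.38), as 12.1% of all tested genes did. None passed in limma after median of ratios scaling or quantile normalization, with 3 and 5 at an unadjusted p under 0.05, while 14.2% and 6.25% of all tested genes passed. These scalings moved the median of all genes to 0.03 and 0.02. The worth of a fragment, which did not overlap between agonist and antagonist libraries, was also put in the model, and then 0 of the 11 and 4 of all 832 genes passed in limma, with 4 of the 11 at an unadjusted p under 0.05. The agonist and antagonist libraries did not overlap for the 4 called genes. Other pseudocounts or filters, the replicate number as a model term, fits of 2 groups and leaving out a library therefore could not change the sign. The 4 log2 fold changes also stayed below 0 under the scalings and with the flow cell or the fragment worth in the model. Over all alternative fits that tested them, ABCB9 ranged between -0.64 and -0.29 and SLC24A5 between -0.68 and -0.31. SLC8B1 ranged between -0.58 and -0.18 and SLC39A10 between -0.46 and -0.04.

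The other 7 tested genes did not pass for agonist against antagonist. AQP1 averaged 16.8 ± 2.8 TPM in agonist libraries and 20.2 ± 3.2 TPM in antagonist libraries, and its log2 fold change was -0.25, with an unadjusted 95% interval between -0.56 and 0.05. ATP6V0E2 was at a log2 fold change of -0.22 (interval -0.52 to 0.07), SLC15A4 at -0.22 (-0.53 to 0.09), ATP6V1G3 at -0.20 (-0.53 to 0.13), ATP6AP2 at -0.20 (-0.44 to 0.05) and ATP1B1 at -0.15 (-0.42 to 0.12). SLC10A4 alone had a value above 0, at 0.23 (-0.12 to 0.58), with 1.62 ± 0.25 TPM in agonist libraries and 1.26 ± 0.42 TPM in antagonist libraries. The libraries of both groups did not overlap for 5 of the 11 genes, the 4 called ones and SLC15A4, against 48% of all tested genes.

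**Figure D3:**
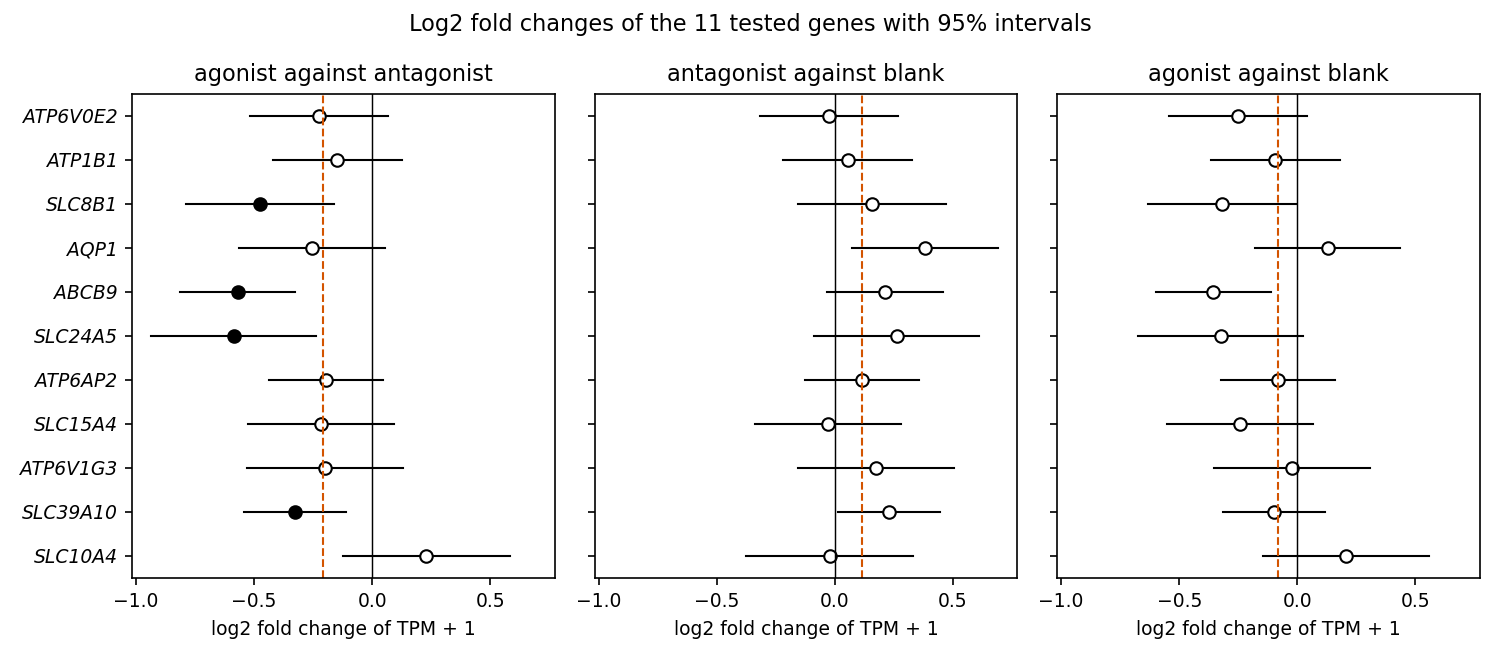
Log2 fold changes of TPM + 1 of the 11 expressed genes in the 3 comparisons, with 95% intervals before adjustment; filled points passed a limma adjusted p of 0.05, and the dashed line is the median of all 832 tested genes. Filled points occur in the comparison of agonist with antagonist, for SLC8B1, ABCB9, SLC24A5 and SLC39A10, and the points of the other 2 comparisons are all open.

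The comparison of antagonist with blank set the blocking ligand against untreated cells. None of the 11 genes passed in limma, where 11.1% of all tested genes did, and 2 of the 11 and 252 of all 832 had an unadjusted p under 0.05. One was AQP1, at 19.6, 17.4 and 23.7 TPM in antagonist libraries and 15.0, 14.0 and 16.6 TPM in blank libraries, which did not overlap. Antagonist over blank, AQP1 was at 0.38 ± 0.14 on the log2 scale (SE; limma, adjusted p = 0.0992), and at 0.49 within H77KGDMXX. The other was SLC39A10, at a log2 fold change of 0.23 ± 0.10 (SE; limma, adjusted p = 0.142). The 2 groups did not overlap for AQP1, SLC39A10 and ABCB9, 3 of 11 genes, against 33.9% of all tested genes. The median log2 fold change was 0.16 for the 11 genes and 0.12 for all. Without blank replicate 1, SLC24A5 passed (log2 fold change 0.43, limma, adjusted p = 0.0415), as 25.5% of all tested genes then did.

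The comparison of agonist with blank set the activating ligand against untreated cells. None of the 11 genes and 0% of all tested genes passed in limma. An unadjusted p under 0.05 was found for 2 of the 11, ABCB9 and SLC8B1, and for 102 of all 832. ABCB9 averaged 6.27 ± 0.69 TPM in agonist libraries and 8.32 ± 1.0 TPM in blank libraries (SD, n = 3 each), a log2 fold change of -0.36 ± 0.11 (SE; limma, adjusted p = 0.275). It was the only one of the 11 genes whose 2 groups did not overlap, against 11.9% of all tested genes. SLC8B1, at 23.8 ± 4.7 TPM in agonist libraries and 29.7 ± 3.7 TPM in blank libraries, had a log2 fold change of -0.32 ± 0.14 (SE; limma, adjusted p = 0.385). Without agonist replicate 2, ABCB9 passed (log2 fold change -0.43, limma, adjusted p = 0.0481), as 8.05% of all tested genes then did. The 2 comparisons with blank and the direct one share libraries, so their values are set side by side and no agreement between them is counted.

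SLC15A4, the lysosomal histidine and peptide carrier, stood apart in 1 blank library. It was at 4.43, 5.23 and 4.32 TPM in agonist libraries and 5.36, 5.72 and 5.59 TPM in antagonist libraries, and at 7.50 TPM in blank replicate 1 against 4.91 and 4.93 TPM in blank replicates 2 and 3. The highest value of the 9 libraries was thus in an untreated one. Blank replicate 1 was also the highest blank library for ATP1B1, SLC8B1, SLC24A5, ATP6AP2, SLC39A10 and SLC10A4. It was not for ATP6V0E2, AQP1, ABCB9 and ATP6V1G3. The same was not counted over all tested genes, so nothing particular to these genes is read from it. Blank replicate 1 had the largest worth of a fragment, 1.21, and the part of such a library difference was not tested.

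Below the threshold, the genes nearest to it were SLC30A10, a manganese exporter, SLC7A5, a carrier of large neutral amino acids, and AQP11, an intracellular aquaporin. In the third highest library they stood at 0.84, 0.85 and 0.53 TPM, while the 3 genes nearest above the threshold, SLC10A4, SLC39A10 and ATP6V1G3, stood at 1.64, 2.22 and 2.96 TPM. SLC7A5 was at 0.57, 0.49 and 0.58 TPM in agonist cells, 0.85, 0.83 and 0.87 TPM with the antagonist and 0.87, 0.65 and 0.53 TPM in blank cells, below 1 TPM in all 9 libraries. SLC30A10 exceeded 1 TPM in antagonist replicate 1 alone, at 1.10 TPM. The zinc carrier genes SLC39A11 and SLC39A12 averaged 0.22 and 0.032 TPM over the 9 libraries, the monocarboxylate carrier family genes SLC16A5 and SLC16A14 0.18 and 0.14 TPM, and SLC46A2 0.36 TPM. SLC17A5, which encodes the lysosomal sialic acid exporter sialin, averaged 0.063 TPM and was listed at 0 in blank replicate 3; it overlaps EEF1A1 in the RefSeq annotation.

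Of the 18 low genes, 4 did not overlap between agonist and antagonist libraries, SLC7A5, SLC39A11, SLC16A5 and SLC51A, against 29.2% of the 487 low genes of the whole table. All 4 had the lower values with the agonist, as did 139 of the 142 such genes in the table. After division by each library's worth of a fragment, 2 of them were nearly level in some libraries. As multiples of the gene's smallest value, SLC51A was at 1.00 in agonist replicate 1 and at 1.015 and 1.044 in antagonist replicates 2 and 3. SLC16A5 reached 2.522 with the agonist and was at 2.527 in antagonist replicate 3. SLC7A5 and SLC39A11 reached 1.156 and 1.199 with the agonist and were at 1.558 and 1.429 or more with the antagonist. In a fit with no filter on low values none of them passed, with log2 fold changes of -0.26 for SLC7A5 (limma, adjusted p = 0.0515), -0.11 for SLC39A11 (limma, adjusted p = 0.0541), -0.15 for SLC51A (limma, adjusted p = 0.0718) and -0.08 for SLC16A5 (limma, adjusted p = 0.406). SLC51A, a subunit of an organic solute and bile acid transporter, was at 0.099 TPM in agonist replicate 1 and listed at 0 in agonist replicates 2 and 3, at 0.22, 0.11 and 0.12 TPM in the antagonist libraries, and listed at 0 in all 3 blank libraries.

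The genes with ion channel symbols, like several carrier genes, were low. KCNJ15, an inward rectifier potassium channel gene, was listed at 0, 0.36 and 0.37 TPM in agonist libraries, 0, 0.19 and 0.20 TPM in antagonist libraries and 0.41, 0 and 0 TPM in blank libraries. KCNK17, of the tandem-pore potassium channels, lay between 0.057 and 0.13 TPM in all libraries, and KCNIP4, a cytosolic partner of voltage-gated potassium channels, between 0.031 and 0.068 TPM. KCNV2, a silent modifier subunit of such channels, was listed at 0 in the 6 agonist and antagonist libraries and in blank replicate 1, and at 0.042 and 0.039 TPM in blank replicates 2 and 3. CACNG2, which encodes the calcium channel family protein stargazin, reached 0.13 TPM at most and was listed at 0 in 2 libraries. SCNN1D, the delta subunit of the epithelial sodium channel, was listed at 0 in 7 libraries and reached 0.057 TPM in blank replicate 2. The water channel gene AQP4 was listed at 0 in 5 libraries and reached 0.032 TPM, and SLC18A3, the vesicular acetylcholine transporter, was listed at 0 in 7 libraries and at 0.41 and 0.13 TPM in blank replicates 2 and 3.

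For several of these genes the values moved in whole steps. After division by each library's worth of a fragment, all values of 6 of the 18 low genes (KCNJ15, SLC16A14, SLC18A3, AQP4, SCNN1D and KCNV2) were within 0.05 of a whole multiple of the gene's smallest value above 0. That smallest value and every 0 are whole by definition, and SLC18A3, SCNN1D and KCNV2 were each listed at 0 in 7 libraries. Such genes were not counted over the whole table, so nothing particular to these 6 is read from the steps. SLC16A14 stood at 1, 8 and 6 steps in the agonist libraries, 2, 3 and 3 in the antagonist libraries and 2, 4 and 2 in the blank libraries. KCNJ15 stood at 0, 2 and 2 steps with the agonist, 0, 1 and 1 with the antagonist and 2, 0 and 0 in blank cells, and the 2 values above 0 of KCNV2 were 1 step each. A step may be 1 fragment or more, and the worth was itself read from low genes that include these. Whether a library listed at 0 differs from one listed at 1 step was not tested, and no order of groups is read from the low genes.

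**Figure D4:**
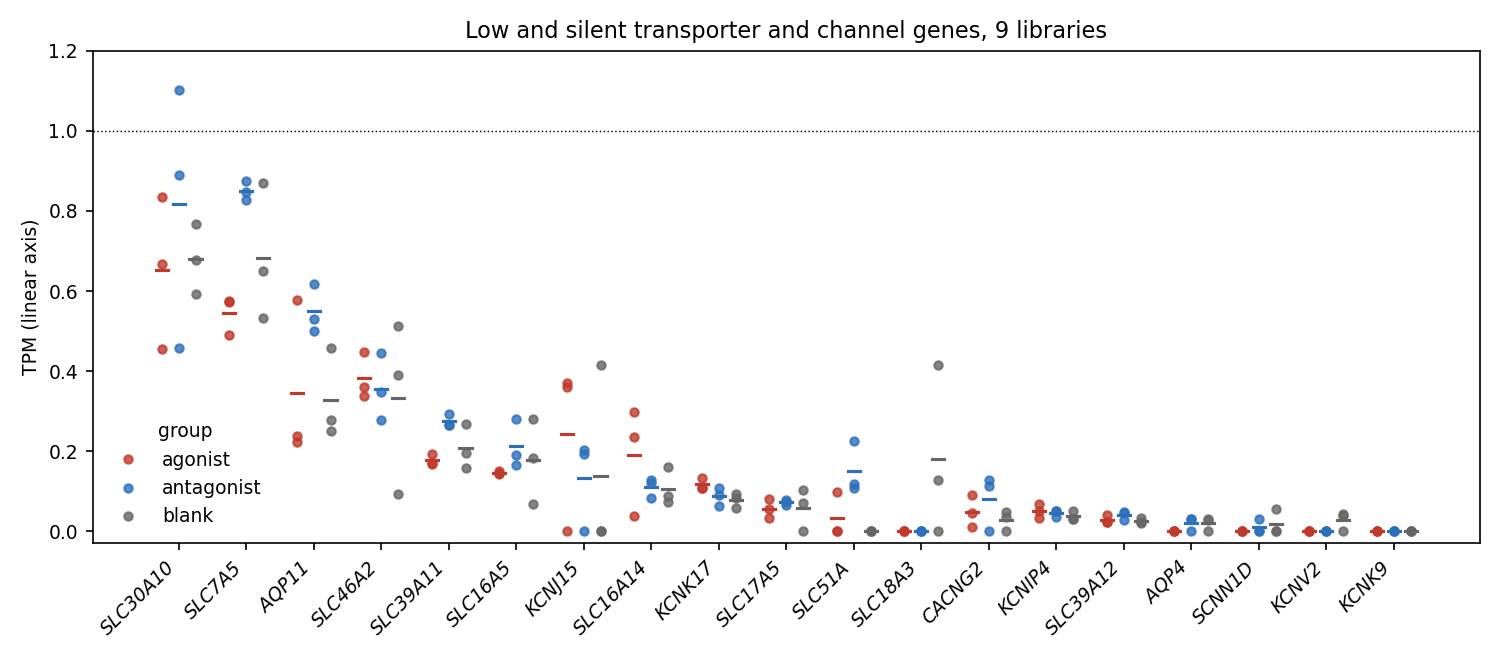
TPM (linear axis) of the 18 low genes and of KCNK9 in each library, with agonist, antagonist and blank libraries as points from left to right, bars for group means (n = 3 each) and a dotted line at 1 TPM. One point lies above the line, SLC30A10 in antagonist replicate 1, and from SLC39A11 on to the right every value is below 0.5 TPM.

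Beside the genes chosen by symbol, a list of 132 other channels, pumps, carriers and their regulators was looked up, of which 9 were in the table and 5 were tested. For agonist against antagonist 1 of these 5 was lower and 0 were higher, where 25.6% of all tested genes passed, so the list did not exceed the background. None of the 5 passed in limma for antagonist against blank, where 11.1% of all tested genes did. The same held for agonist against blank, where 0% did. In each of these 2 comparisons 1 of the 5 had an unadjusted limma p under 0.05, as had 252 and 102 of all 832 genes. The one that passed was TPCN1, a cation channel of endosomes and lysosomes, at 1.25, 1.73 and 1.37 TPM in agonist libraries, 2.27, 2.01 and 2.15 TPM in antagonist libraries and 1.71, 1.53 and 1.48 TPM in blank libraries. The antagonist libraries lay above the other 6, and the log2 fold change of agonist against antagonist was -0.36 ± 0.10 (SE; limma, adjusted p = 0.0257). The 4 that did not pass were CLIC2, MFSD2A, TMC7 and MICU2, at log2 fold changes of 0.17, -0.24, -0.18 and -0.19.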

How the data were processed

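RNA of 9 granulosa cell libraries was sequenced after Trizol extraction and library preparation with a NEBNext Ultra kit, per the labels' protocols. The authors deposited TPM values, 1 column per library. Per the submitters' processing notes, StringTie 1.2.2, Cuffdiff, Cufflinks 2.2.1, TopHat2 2.1.0 and CASAVA 1.8.2 were used, with no roles stated. The sources used here name no genome build, annotation or strand setting. TPM keeps no read number, so no counting interval is given.

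Genes at 1 TPM or more in at least 3 libraries were fitted as log2(TPM + 1) with limma 3.58.1 in R 4.3.3, in 1 model of 3 groups over 9 libraries with a variance trend. This scale understates fold changes of low genes. P-values were adjusted by Benjamini-Hochberg over all tested genes of the table within a comparison, and 0.05 was the threshold. The worth of a fragment was the most frequent ratio between libraries among the 366 genes whose values were all under 0.5 TPM. It rested on 8 to 20 of 201 to 215 ratios, while the next most frequent ratio held 3 to 6. The closest case was agonist replicate 3, with 8 against 6.

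The members and lists were chosen with earlier results of these data known. Named with their values were all called genes, up to 5 uncalled ones a comparison with an unadjusted p under 0.05, the 2 highest of each family, the 3 genes on either side of the expression threshold and genes listed at 0; the others were added after their values were seen. Gene symbols were matched to RefSeq (Taihu goose assembly, 29 of 30 found), used for names of overlapping genes only. Alternatives were other pseudocounts, filters and scalings, the flow cell, the replicate number or the fragment worth as a model term, fits of 2 groups and leaving out each library; the model with the worth was chosen after seeing the data.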

Additional observations from a re-analysis of the deposited data

How the results depend on the processing

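For agonist against antagonist, 4 of the 11 tested genes passed in limma as reported, where 25.6% of all tested genes did. With pseudocounts of 0.1 or 0.5, 4 passed (24.04% and 25.36% of all), and 4 in fits of only the 2 groups (27.04%). With a mean of at least 5 TPM, 3 of the 8 genes then tested passed, as 19.41% of all 443 tested genes did. SLC39A10 was not tested in that fit. The count was 2 of 30 with no filter on low values, where 13.3% of all genes passed. It was 2 of 11 with the flow cell in the model (15.9% of all) and 1 with upper quartile scaling (12.1%). It was 0 with median of ratios scaling (14.2%), quantile normalization (6.25%) or the fragment worth as a model term (0.48%). Leaving out 1 library gave 0 to 5, the fifth being ATP6AP2 without agonist replicate 2. In these fits 1.803% to 35.46% of all tested genes passed, with the highest share without agonist replicate 2. Leaving out 1 library gave 0 to 1 for each comparison with blank. Of all tested genes, 0.24% to 25.5% then passed for antagonist against blank and 0% to 8.05% for agonist against blank. The alternative limma fits with all libraries kept gave 0 in both cases. The share of all tested genes that passed in them was 0% to 9.13% where the antagonist was compared. It was 0% where the agonist was. In these fits 0 to 5 genes had an unadjusted p under 0.05, out of 30 with no filter on low values and out of 11 or fewer otherwise. Such genes were not counted over all tested genes, so the 0 to 5 has no background and is not read as a result. The causes were not tested. The number of expressed genes was 11, and 14, 8 or 10 with 0.5 TPM in 3 libraries, a mean of 5 TPM or 1 TPM in all libraries. None of the 4 called values changed sign, which only the scalings, the flow cell or the fragment worth could have brought about. Called values are chosen for lying far from 0 against their spread, so they are not set against the uncalled ones. Of the 29 uncalled values 17 changed sign under at least 1 alternative, 10 of them only under the 3 scalings. Upper quartile and median of ratios scaling divide all genes of a library by a common factor. Quantile normalization instead shifts genes by their rank within a library, so genes need not move together. For agonist against antagonist, 6 uncalled values changed sign, all under the 3 scalings only.

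With the replicate number as a block, 3 of the 11 genes passed for agonist against antagonist, as 19.95% of all tested genes did. SLC39A10 did not (limma, adjusted p = 0.0654). In that model 0 of the 11 passed for antagonist against blank (3.25% of all tested genes) and 0 for agonist against blank (0%). Deviations of same-numbered libraries correlated above 0.1 in 3 of 9 pairs, and a library correlated best with its own number in 10 of 18 cases. Each case has 3 candidate libraries and the cases share libraries, so these counts do not decide whether same numbers mark pairs. In the main fit the libraries were not treated as paired.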
